A study of Mus musculus with 2 samples.

Results

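Mir139 (ENSMUSG00000065446.1) is a microRNA (miRNA) gene whose hairpin is carried in an intron of Pde2a, and it was 1 of the 2202 annotated miRNA genes in the count tables. It was chosen by its measured abundance: the own-strand counts, the share and the rank of its row in each library picked it out, so those values are given as a description, with no test. The samples were adrenal glands of female B6CASTF1/J mice, a first-generation cross of C57BL/6J and CAST/EiJ, aged 18 to 20 months and supplied by The Jackson Laboratory. Total RNA of 1 tissue sample per library went into small RNA libraries with a labelled size range below 30. The labels give a single group with biological replicates 1 and 2, which carry 1 shared donor record, and any spread given below is the one seen between these 2 samples, which may be technical. There was no second age, sex, strain or treatment, and no messenger RNA was measured, so the labelled tissue could not be set against the enzymes and receptors that define adrenal cells.

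A miRNA hairpin is cut out of a longer transcript and trimmed to a short duplex, and either strand of that duplex can be loaded into an Argonaute protein. The loaded strand finds messenger RNAs mainly through its seed, bases 2 to 8 from its 5′ end, which pairs with sites in 3′ untranslated regions (UTRs) and lowers translation and stability of the message. Mir139 gives miR-139-5p and miR-139-3p and is known mostly as a miRNA that is lowered in many tumours. Its host Pde2a encodes a phosphodiesterase that is stimulated by cGMP and breaks down cAMP and cGMP. In the outer adrenal cortex, which makes aldosterone, this enzyme is known to link atrial natriuretic peptide, a signal through cGMP, to lower cAMP.

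The hairpin and both mature arms are shown because every count below belongs to this hairpin as a whole. The sequences are RefSeq's on GRCm38.p6, the assembly also called mm10, on the plus strand of chromosome 7. In the hairpin the capitals mark the mature arms, and in each arm the capitals mark the seed.
Mir139 hairpin, chr7:101475376-101475443: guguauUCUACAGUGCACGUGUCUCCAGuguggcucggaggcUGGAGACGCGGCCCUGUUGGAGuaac
miR-139-5p, chr7:101475382-101475403: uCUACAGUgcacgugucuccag
miR-139-3p, chr7:101475418-101475439: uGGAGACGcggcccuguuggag

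The hairpin is 68 bases long, and each arm has 22 bases. The 5p arm runs from base 7 to base 28, the 3p arm from base 43 to base 64, and 14 bases separate them. In the fold of lowest predicted energy (RNAfold, -35.6 kcal/mol), 19 of the 22 bases of the 5p arm paired with the 3p arm. That energy was -0.524 kcal/mol per base, against a median of -0.433 over the 339 miRNA genes with at least 10 counts in each library, and 50 of those hairpins were lower. The hairpin had 58.8% G and C, against a median of 50% over the same genes. Annotated hairpins differ in length, and neither comparison was matched for it.

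No other miRNA in the RefSeq table, which holds 1738 mature sequences, had the seed of miR-139-5p or of miR-139-3p. For miR-139-3p, 1 other miRNA, miR-6397, had the same bases 2 to 7, and for miR-139-5p there was none. The full sequence of each arm occurred in 1 annotated hairpin, that of Mir139, and no run of 18 bases of this hairpin recurred in a non-overlapping miRNA gene. Reads that align to several places are left out of the gene counts, and 1120 of the 2202 genes share such a run with another miRNA gene. Copies of the sequence elsewhere in the genome were not examined.

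Mir139 lies within 2 overlapping protein-coding gene models on its own strand, on mm10 with GENCODE M21 annotation. Pde2a (ENSMUSG00000110195.1) spans chromosome 7, 101421691 to 101512827. Gm45837 (ENSMUSG00000030653.17) is a longer model of the same locus, starting further upstream, and spans 101410886 to 101512819. Of the 12 annotated Pde2a transcripts, 10 span the miRNA, and in none of these, nor in the single Gm45837 transcript, does it touch an exon. In the 4 protein-coding Pde2a transcripts that span it, it sits in intron 2, which is 29902 bases long, 23907 bases after exon 2 and 5927 bases before exon 3. In Gm45837 it sits in intron 3, which is 19829 bases long. Its hairpin starts 53.7 kb from the annotated start of Pde2a, a gene of 91.1 kb.

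**Figure D1:**
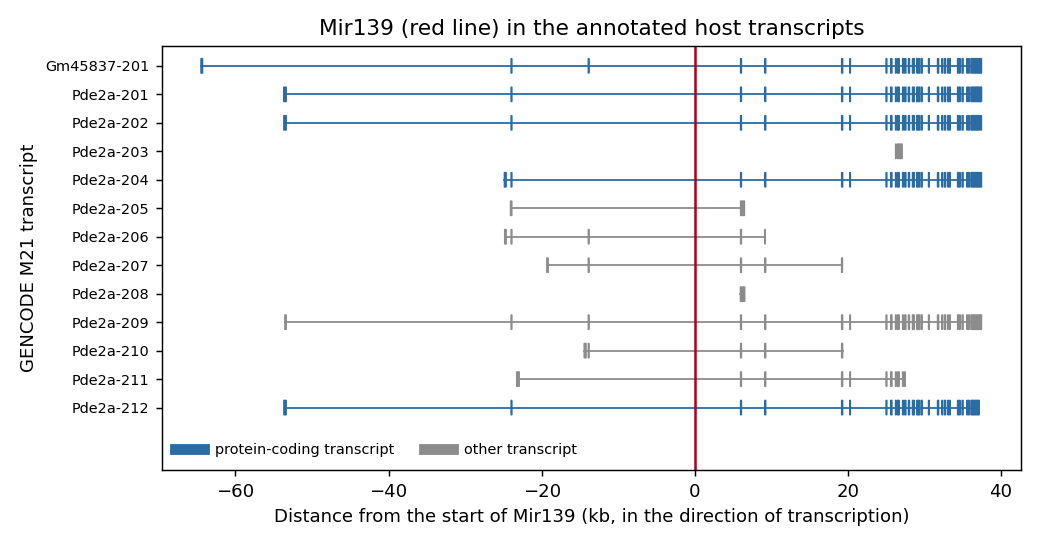
Exons (boxes) and introns (lines) of the annotated Pde2a and Gm45837 transcripts, plotted by distance in kb from the start of Mir139 (red line) in the direction of transcription. Short exons are drawn with a minimum outline so that they stay visible. Blue marks protein-coding transcripts and grey other transcripts; the red line crosses an intron in each of the 10 Pde2a transcripts and the 1 Gm45837 transcript that span it.

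Mir139 stood alone at this locus. The nearest annotated miRNA gene on one side was Mir3102, in an intron of Arhgef17, 593 kb away, with 860 counts in replicate 1 and 1021 in replicate 2. On the other side was Gm22655, in an intron of Anapc15, 406 kb away, with no counts in either library. Chromosome 7 holds 153 annotated miRNA genes, of which 19 had at least 10 counts in each library. Mir139 supplied 92.4% of all chromosome 7 counts in replicate 1 and 92.7% in replicate 2.

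The level of Mir139 was high in both libraries. It had 138049 counts of 2590051 assigned to miRNA genes in replicate 1, and 112202 of 2291030 in replicate 2. These are 53300 and 48974 CPM (counts per 1000000 of these totals). The share in replicate 1 was 5.33%, with a Wilson 95% interval of 5.30 to 5.36. The share in replicate 2 was 4.90%, with an interval of 4.87 to 4.93. Their mean was 5.11% ± 0.306 (SD, n = 2). The intervals cover counting error only and treat reads as independent. Copies made by PCR are not independent molecules, so the intervals can be too narrow. The share was lower in replicate 2, and the coefficient of variation over the pair was 5.98%. In each library the level was far above that of the median detected miRNA gene, 354-fold in replicate 1 and 389.6-fold in replicate 2. A small RNA read covers about a whole mature miRNA, so these counts were not divided by gene length. Levels of different miRNAs are compared as read counts, and how evenly library preparation captured each sequence was not measured.

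Set against every read in the table, including unmapped reads and those aligned to several places, Mir139 took 1.41% of 9807567 reads in replicate 1 and 1.60% of 6993665 in replicate 2. On this scale the order of the libraries is reversed. Unmapped reads were 40.6% of replicate 1 and 29.8% of replicate 2, and their part in this reversal was not tested.

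All counts at this gene came from its own strand. The opposite strand had 0 counts in both libraries, which allows up to 1.16 CPM in replicate 1 and 1.31 CPM in replicate 2. With strand ignored the counts of Mir139 were the same 138049 and 112202, and its share was 6.30% and 5.50% of a total that leaves out reads of miRNA genes overlapping on opposite strands.

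Mir139 ranked 6 in both libraries and 5 by mean CPM. Just above it by mean stood Mir378a, carried in an intron of Ppargc1b, with 5.84% in replicate 1 and 4.59% in replicate 2. Above that stood Mir375, a miRNA of hormone-secreting cells such as those of the islets, with 6.24% and 5.40%, and Mirlet7g, a let-7 member, with 8.05% and 7.21%. Just below it stood the endothelial Mir126a, with 6.48% in replicate 1 and 3.34% in replicate 2. The next below were Mir23b, with 2.52% and 5.19%, and Mir23a, with 2.31% and 5.12%.

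The values of Mir378a, Mir126a, Mir23b and Mir23a each overlapped those of Mir139 over the libraries, so the order among these 5 genes is not resolved by the pair of samples. Mir375 and Mirlet7g lay above Mir139 in both libraries without overlap, although the lower value of Mir375, 5.40%, was close to the higher value of Mir139, 5.33%. The most abundant gene, Mirlet7b, had 1.95 times the counts of Mir139 in replicate 1 and 2.79 times in replicate 2. Of these neighbours Mirlet7g, Mir378a, Mir23a and Mir23b share 18 bases with another miRNA gene, as does Mirlet7b, so their counts can be too low. Mir375, Mir126a and Mir139 share no such run. Among the 1082 genes that share no such run, Mir139 ranked 2 by mean CPM, behind Mir375. The other 1120 genes, many of them ranked below Mir139, can have counts that are too low. Reads aligned to several places were 24.0% of all reads in replicate 1 and 28.0% in replicate 2. The ranks of Mir139 among all miRNA genes, and its share of their counts, hold for counts that leave these reads out. Whether any lower gene would pass Mir139 with them was not tested.

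**Figure D2:**
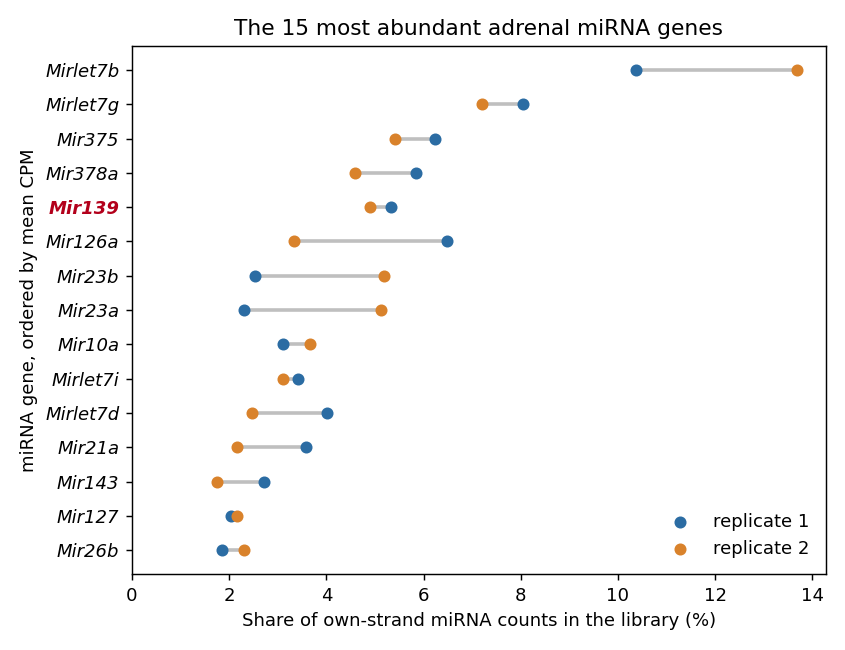
Share of own-strand counts (%, horizontal axis from 0) of the 15 miRNA genes with the highest mean CPM, with replicate 1 in blue, replicate 2 in orange and a grey line joining them. Mir139 (red label) has points at 5.33% and 4.90%, with the points of Mir126a and Mir378a on both sides of them and the higher points of Mir23b and Mir23a between them.

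By pattern over the 2 libraries, the genes closest to Mir139 were Mir378a, Mir375, Mir126a, Mirlet7g and Mir10a. The measure was the straight-line distance between log2(CPM + 1) values, which was 0.16 for Mir378a, 0.27 for Mir375, 0.62 for Mir126a, 0.82 for Mirlet7g and 0.88 for Mir10a. With 2 libraries this is mostly a likeness in level. Mir10a, a miRNA of a Hox gene cluster, had 3.10% and 3.67% of counts, below Mir139 in both libraries.

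Among miRNA genes inside introns of protein-coding genes on the same strand, Mir139 was the third by mean CPM, after Mirlet7g in Wdr82 and Mir378a, and ahead of Mir126a and Mir23b. Introns were counted against exons of protein-coding transcripts, which puts Mir126a among them. This class has 789 annotated genes, of which 130 had at least 10 counts in each library, and it held 45.5% of counts in replicate 1 and 44.3% in replicate 2. Mir139 made up 11.7% of the intronic counts in replicate 1 and 11.1% in replicate 2. The median detected intronic miRNA had a mean of 138 CPM.

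With library sizes scaled by edgeR's TMM factors, which set the bulk of the miRNAs equal, the log2 ratio of Mir139, replicate 2 over replicate 1, was -0.08 (exact 95% interval -0.10 to -0.07). That is 1.06-fold more in replicate 1. The interval covers counting error between these libraries. As background, an exact conditional binomial test was run on each of the 367 miRNAs whose counts summed to 20 or more. At a Benjamini-Hochberg adjusted p of 0.05, 230 of them (62.7%) differed between replicates 1 and 2. No p is given for Mir139, since the counts that chose it are the ones the test would use, and nothing is read from that share.

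The absolute ratio of Mir139 was below the median of the 20 most abundant genes, but others were close to it: Mirlet7i had -0.10 and Mirlet7g -0.12. Of the other 366 tested genes, 42 (11.5%) had a smaller absolute ratio, and 100 (27.3%) did with TMM factors from all genes. Most of these genes have far fewer counts, so counting error spreads their ratios more. Mir139 was also chosen by the same counts, so nothing is read from its place among them. The median absolute log2 ratio was 0.44 over the 20 most abundant genes and 0.46 over the 367 tested. None of the other 19 most abundant genes had a smaller absolute ratio than Mir139 under this scaling. With DESeq2 size factors or total counts 1 gene did, Mir127, and with TMM factors from all genes Mir10a and Mir127 did. The ratio of Mir139 was then -0.18, -0.12 and -0.22, higher in replicate 1 in each. These scalings shift all genes together: the median log2 ratio of the tested genes was 0.02 in the main scaling and -0.12 with TMM factors from all genes, and Mir139 lay 0.10 below the median in all 4.

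**Figure D3:**
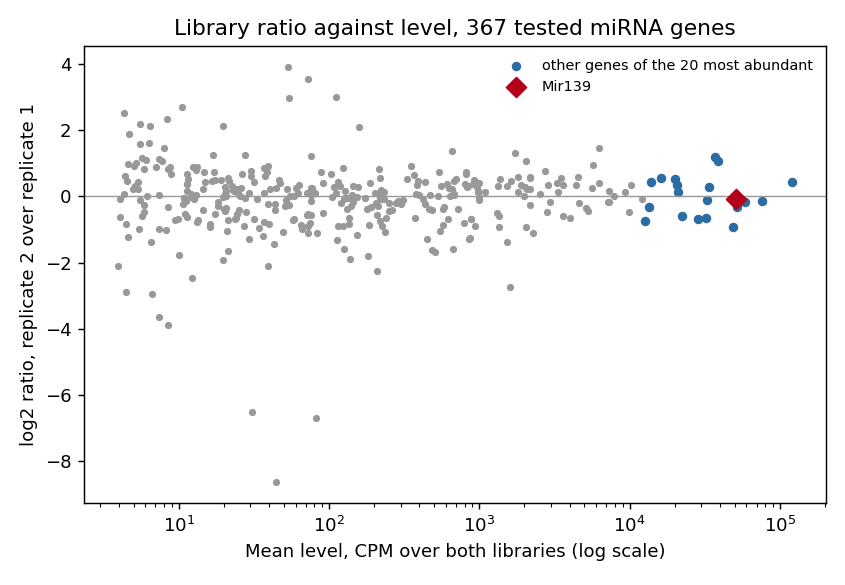
Log2 ratio of replicate 2 over replicate 1 (vertical axis, TMM-scaled, 0 means equal) against mean CPM (log axis) for 367 tested miRNA genes; each point is a gene. Mir139 (red diamond) lies at -0.08, and the other genes of the 20 most abundant (blue) lie further from 0.

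The levels of miRNAs that mark other cell types are given beside Mir139, whose own values were 53300 and 48974 CPM. The counts of listed members that differed stand against 32.4% of the 367 tested miRNAs that were higher in replicate 1 and 30.2% that were higher in replicate 2. The lists have 15 tested members or fewer, and no list was tested against another. The endothelial list, Mir126a and its partner Mir126b, summed to 64764 CPM in replicate 1 and 33414 in replicate 2, and 2 of 2 tested members were higher in replicate 1. Mir139 was 0.823 times the sum of this list in replicate 1 and 1.47 times in replicate 2. Mir126b lies on the opposite strand within Mir126a, so its reads may not be those of a separate gene. It had 31 counts in replicate 1 and 3 in replicate 2, and so passed the filter through replicate 1. The smooth muscle pair, Mir143 and Mir145a, summed to 28442 and 20276 CPM, with 1 member higher in each library. The neuronal and chromaffin list, in which nearly all counts are of Mir375, summed to 66586 and 56988 CPM, with 5 of 5 tested members higher in replicate 1. Mir124a-1, Mir124a-3 and Mir9-2 of this list had no counts in either library, and 7 of its 10 measured members share 18 bases with another miRNA gene.

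The listed miRNAs of blood cells, striated muscle, epithelia, liver and kidney summed to less than Mir139. Their counts of differing members stand against the same 32.4% and 30.2%. Members that share 18 bases with another miRNA gene can have counts that are too low. They were 4 of 8 in the striated muscle list, 2 of 3 in the kidney list and 1 of 7 in the leukocyte list. The leukocyte list summed to 3045 and 2955 CPM, with 1 of 6 tested members higher in replicate 1 and 1 in replicate 2. That split depends on the scaling: it was 2 and 0 with DESeq2 size factors and 4 and 0 with TMM factors from all genes. The erythroid list summed to 902 and 490 CPM, with 2 of 3 higher in replicate 1. The striated muscle list had 598 and 81.2 CPM, with 4 of 4 tested members higher in replicate 1. Of its 8 members, only 1 had at least 10 counts in each library. Mir499 had 420 and 3 counts and Mir208a 231 and 0. They passed the filter on summed counts through replicate 1, so nothing is read from the 4 of 4. The epithelial list had 43.6 and 249.2 CPM, with 3 of 4 higher in replicate 2. Of its 5 members, 2 had at least 10 counts in each library, and Mir141, with 6 and 24 counts, passed the filter through replicate 2. Mir122, the liver miRNA, had 622 and 702 CPM and was higher in replicate 2, though not with TMM factors from all genes (adjusted p 0.169, exact test), and the kidney list had 56.8 and 36.2 CPM, with 1 of 2 higher in replicate 1. The part of cell makeup in the level of Mir139 was not tested. In such whole-tissue RNA, fewer cells of a type and less RNA per cell cannot be told apart.

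A list of miRNAs described as responding to corticotropin or other adrenal stimulation, led by Mir21a, Mir125a and Mir214, was included as the adrenal hormone list. All 15 of its members were tested: 11 were higher in replicate 1, 2 in replicate 2, and 2 did not pass, beside the 32.4% and 30.2% of all tested miRNAs. With DESeq2 size factors or TMM factors from all genes, 12 were higher in replicate 1 and 0 in replicate 2. Their summed level was 52108 CPM in replicate 1 and 32060 CPM in replicate 2. Of the 15 members, 5 share 18 bases with another miRNA gene, so these sums can be too low. As counted, Mir139 alone gave 1.02 times the whole list in replicate 1 and 1.53 times in replicate 2. Mir21a, the most abundant member of the list, had 3.57% and 2.16% of counts, a log2 ratio of -0.69.

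**Figure D4:**
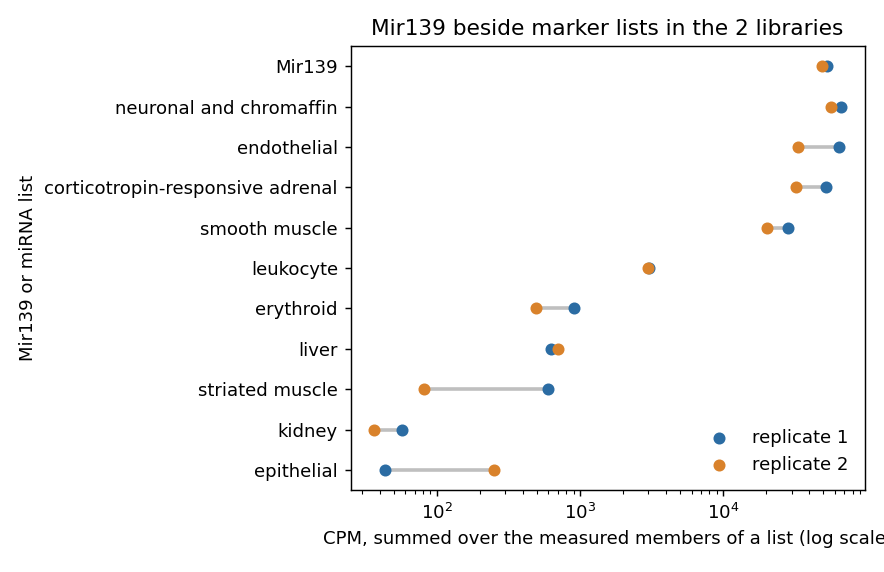
CPM of Mir139 and summed CPM of each miRNA list (log axis), with replicate 1 in blue and replicate 2 in orange. Mir139 lies beside the neuronal and chromaffin, endothelial and corticotropin-responsive lists and far above the leukocyte, erythroid, liver, striated muscle, kidney and epithelial lists.

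The seed of miR-139-5p pairs with the letters ACTGTAG in a message, and an added A after them (ACTGTAGA) makes the longest usual site, which contains the shorter. These letters were searched on the message strand in the longest annotated 3′ UTR of each gene, for 22 genes of steroid production and 21 of cyclic nucleotide signalling. ACTGTAG was in 3 of the 22 and in 1 of the 21, beside 11.0% of the 21005 genes with an annotated 3′ UTR. The longer site was in 2 and 1 of them, beside 3.71% of all genes. The site of miR-139-3p, CGTCTCC, was in none of the 22 and in 1 of the 21, Creb1, beside 3.16% of all genes.

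The 3 longer sites of miR-139-5p in the listed genes are shown to let the seed be read against them. Only listed genes were looked at one by one, so that these genes bear on adrenal hormones follows from the lists. The miR-139-3p site in Creb1 is also of the longer form and is not shown. Mrap encodes the accessory protein that the corticotropin receptor needs to reach the cell surface, Agtr1a a receptor of angiotensin II, the hormone that drives aldosterone output, and Prkg2 a kinase activated by cGMP. Capitals mark the site, in GENCODE M21 transcript sequence.
Mrap: cagagcgtctcaACTGTAGAa
Agtr1a: tgcgttcaacagACTGTAGAt
Prkg2: acattcgtaatcACTGTAGAg

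The 3′ UTR of Mrap is 377 bases long with the site at base 82, and 1.79% of the 892 genes with a 3′ UTR within 10% of that length hold ACTGTAG. That of Agtr1a is 834 bases long with the site at base 130, and 6.10% of 1262 genes of like length hold it. That of Prkg2 is 2237 bases long with the site at base 1097, against 18.3% of 1353 genes. Soat1, which esterifies cholesterol for storage, holds the shorter form in a 3′ UTR of 6534 bases, where 37.8% of genes of like length do. Creb1 holds the site of miR-139-3p in a 3′ UTR of 7170 bases, where 10.5% of 190 genes of like length hold CGTCTCC. These shares are given only for listed genes found to hold a site, so a low share is not a result. Pde2a itself holds neither site. Such a match is a description of letters; whether any of these messages is bound or changed was not measured.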

How the data were processed

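Small RNA reads were counted per miRNA gene by the authors and deposited as raw counts, with assembly mm10 and annotation M21 per the deposited notes. Which aligner, counter and trimming were used is not given in the sources used here. Each table has strand-ignored, own-strand and opposite-strand columns (read from the values). Its first 4 rows name no gene and stayed out of library sizes: they held 73.6% and 67.2% of the reads. All 2202 identifiers matched GENCODE M21. The build is of C57BL/6J, so reads with CAST/EiJ alleles may be missing.

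CPM are own-strand counts per 1000000. TMM factors (edgeR 4.0.16) were 1.01 and 0.987, from genes with a summed count of at least 20. Two-sided exact conditional binomial tests (scipy 1.17.1) were adjusted by Benjamini-Hochberg over these genes. They compare 2 libraries, not conditions. They were tried on simulated counts with set fold changes and counting error only, which does not cover spread between samples or error in the scaling. Ratios used a prior count of 0.5. Hairpins were folded with RNAfold 2.7.2. Sequences came from RefSeq (GRCm38.p6) and GENCODE transcripts.

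Genes named were Mir139, its 3 neighbours by mean CPM on each side, the 5 of closest pattern, genes sharing a seed, the nearest miRNA genes on the chromosome, the 5 leading intronic miRNAs and the leading members of each list. Exceptions named after their values were seen are Mirlet7b, Mirlet7i, Mir127, Mir6397 and the genes at 0. Mir139 and the lists were chosen with earlier results of these data known, and a listed gene is not reported here.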

Additional observations from a re-analysis of the deposited data

How the results depend on the processing

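The share of Mir139, 5.11% on average, depends on the total it is set against. It was 5.90% with strand ignored, 8.58% over genes that share no 18 bases, 5.81% without Mirlet7b in the total and 1.51% of all reads. Without either replicate it was 4.90% to 5.33%. Its rank by mean CPM was 5, and 4 with strand ignored, 2 over genes that share no 18 bases, and 6 without either replicate. The log2 ratio between libraries, -0.08, was -0.18 with DESeq2 size factors, -0.12 with total counts, -0.11 with strand ignored and -0.22 with TMM factors from all genes, an alternative chosen after seeing the data. It stayed at -0.08 with a prior count of 5. Which genes set the main TMM factors was not fixed beforehand either, and the main scaling gave the smallest absolute ratio of the scalings used. The count of differing miRNAs, 230 of 367 tested (62.7%), ranged from 180 with a minimum summed count of 200 to 228 without a filter. These filters also change how many genes are tested, so the counts do not show how the share changed. No paired analysis was possible because the labels give 1 group. Among 31 other named genes tested, 196 of 207 alternative values kept direction and side of the threshold, and 6, of Mir342 and Mir150, changed sign near 0 without passing. With TMM factors from all genes Mir342 and Mir150 passed at -0.12 and -0.13, the other direction from the main values, Mir146 passed at -0.15, and Mir122 no longer passed; Mir146 also passed with DESeq2 size factors, at -0.11. The leukocyte counts move with these genes. Arms of the hairpin are not resolved by these counts, and 2 libraries limit the precision of every level.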
